A study of Mus musculus with 1094 samples.

Results

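The cells described here are neural stem cell sorts of the mouse dorsal cortex at E17.5, in the last days before birth. They were taken as every E17.5 stem cell column with at least 1000 genes at 1 TPM or more, which kept all 76 of the 76 cells, out of 1094 cells in the whole series, 1071 of which have that many genes. TPM is the usual abundance unit that corrects for transcript length and sums to the same total in every cell. The same rule kept 86 cells at E15.5 and 66 cells at E18.5, the 2 libraries used for comparison.

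Radial glia are the stem cells of the embryonic cortex. They line the ventricle, receive Notch signals and first give rise to excitatory neurons, often through Eomes-expressing basal progenitors, and later to astrocytes and oligodendrocyte precursors. Cortical interneurons are made elsewhere, in the ganglionic eminences, and migrate into the cortex, where they express GABA synthesis enzymes and Dlx factors.

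All 3 groups came from wild-type C57Bl/6 mice carrying the Hes5::GFP transgene, and all cells were labelled female. The E17.5 cells were set against Hes5::GFP cells of the same tissue at E15.5 and at E18.5, each dissected from dorsal cortex (the tissue label reads forebrain), dissociated and sorted for GFP. Hes5 is a Notch target, so the promoter of a Notch target decided which cells entered every group. Cells were captured on a microfluidic array, checked by microscopy, amplified and sequenced one by one. The labels name no animal, litter or array, so each stage counted as 1 sample, no spread between animals could be measured, and no test was made. Differences below are of log2(mean TPM + 1), E17.5 minus the other stage, which understates changes of low genes, and 4-fold (2 log2 units) is a size, not a test. Shares of cells carry exact (Clopper-Pearson) 95% intervals that cover counting error only. A difference between captures, and fewer cells of a type against less RNA per cell in a library mean, cannot be told apart from a difference between stages.

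The TPM values hold no read depth. Cells of E17.5 had a median of 4895 genes at 1 TPM or more (lowest 1753, highest 7511), against 5197 at E15.5 and 3428 at E18.5. The lower number at E18.5 can lower any share of cells at E18.5 that counts a transcript at 10 TPM or more, and its part in the results was not tested. Mitochondrial transcripts took a median of 6.11% of a cell's TPM at E17.5, against 7.21% at E15.5 and 6.02% at E18.5. No column of the 8 stem cell libraries was identical to another, and no E17.5 cell correlated above 0.634 with any other cell of these libraries.

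The promoter of Hes5, whose reporter was sorted, and those of the astroglial markers Aldoc and Tnc are shown as a description. The classes used below rest on lists of transcripts and require neither Aldoc nor Tnc. Each run is 300 bases of GRCm38.p6 around the annotated gene start, from RefSeq, read 5′ to 3′ on the gene's strand. The extent of the promoter in the transgene is not given in the sources used here. Capitals mark GTGGGAA or its reverse complement TTCCCAC, the core letters of the site of RBPJ, the DNA-binding partner of Notch; both strands were searched and no matches overlapped. Hes5 is at chr4:154960673-154960972 on the plus strand, with 2 matches. Aldoc is at chr11:78322823-78323122 on the plus strand, with 1 match. Tnc is at chr4:64046966-64047265 on the minus strand, with 1 match. For Aldoc and Tnc the first of 2 listed windows is shown.
Hes5: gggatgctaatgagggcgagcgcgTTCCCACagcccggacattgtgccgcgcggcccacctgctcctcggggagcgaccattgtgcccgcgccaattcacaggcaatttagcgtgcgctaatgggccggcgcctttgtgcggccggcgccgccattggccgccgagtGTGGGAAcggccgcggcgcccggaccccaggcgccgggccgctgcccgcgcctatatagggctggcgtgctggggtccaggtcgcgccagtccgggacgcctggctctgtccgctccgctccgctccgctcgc
Aldoc: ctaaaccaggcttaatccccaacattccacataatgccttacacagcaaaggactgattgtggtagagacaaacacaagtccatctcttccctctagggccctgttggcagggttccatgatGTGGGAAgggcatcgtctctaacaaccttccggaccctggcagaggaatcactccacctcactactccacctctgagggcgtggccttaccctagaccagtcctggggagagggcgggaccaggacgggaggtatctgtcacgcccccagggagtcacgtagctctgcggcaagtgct
Tnc: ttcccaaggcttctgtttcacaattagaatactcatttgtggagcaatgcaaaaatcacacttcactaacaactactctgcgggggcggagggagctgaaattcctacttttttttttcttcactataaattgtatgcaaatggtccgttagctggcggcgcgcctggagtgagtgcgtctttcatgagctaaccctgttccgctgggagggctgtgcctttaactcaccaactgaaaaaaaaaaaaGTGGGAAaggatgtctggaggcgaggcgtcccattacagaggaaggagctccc
The windows of Gad1 and Neurod6 hold no match to these letters. Of 32851 windows of this length, 2097 (6.38%) hold at least 1 match, so a match is a description of these letters and not a bound site.

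Some values went against the labels, and they come before the results. Although all cells were labelled female, 57 of the 76 E17.5 cells had at least 1 of the Y-linked genes Eif2s3y, Ddx3y, Uty and Kdm5d at 10 TPM or more, and 0 of 76 had Xist, the RNA that coats the inactive X chromosome, at that level. At E15.5 the reverse was seen, with 0 of 86 cells with a Y-linked gene and 77 of 86 with Xist. The E18.5 library held both kinds, 30 of 66 cells with a Y-linked gene, 6 of 66 with Xist and 1 with both. Within E17.5 the Y-linked genes were present in 12 of 19 radial glia-like, 29 of 39 neuron-like and 16 of 18 interneuron-like cells. The sex of the embryos and their stage therefore cannot be told apart between E17.5 and E15.5.

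**Figure D1:**
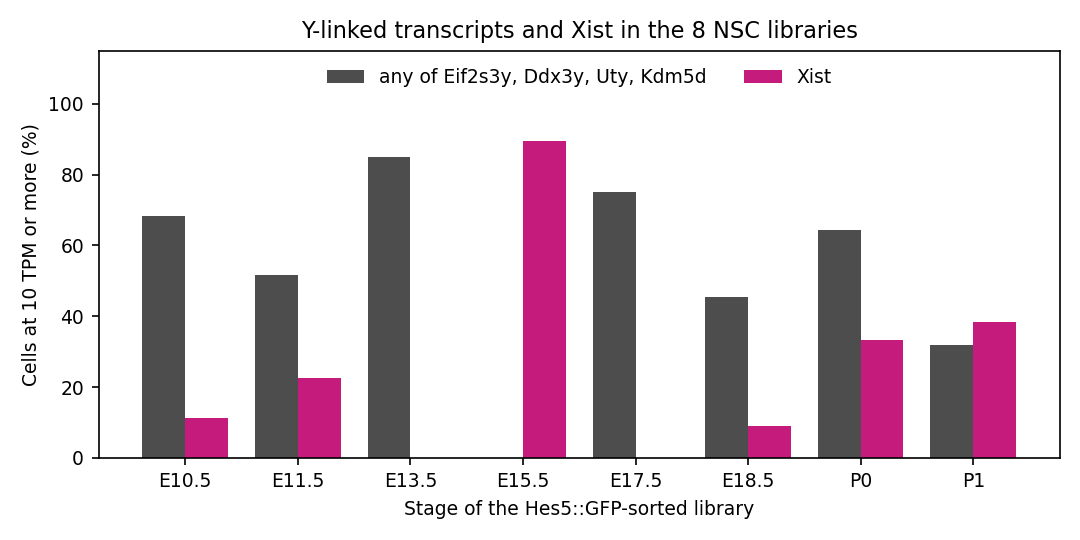
Share of cells (%) of each of the 8 Hes5::GFP libraries, in order of stage, with any of 4 Y-linked genes (grey) or with Xist (magenta) at 10 TPM or more. The E17.5 library has grey only (57 of 76 cells) and the E15.5 library magenta only (77 of 86 cells), while E18.5 has both.

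By the marker classes given below, the name stem cell held for a minority of the E17.5 cells. Hes5 itself, whose promoter drove the sorted reporter, reached 10 TPM in 4 of 76 cells (5.26%, 1.45 to 12.9%), against 4 of 86 at E15.5 and 12 of 66 at E18.5. Its level at E17.5 was 0 in 67 of 76 cells and at most 126 TPM. At E10.5, where 84 of 88 cells were radial glia-like by the rule below, Hes5 reached 10 TPM in only 14 of 88. Hes5 below this level therefore does not set a cell apart from radial glia. Hes1, the other Hes effector of Notch in these cells, reached 10 TPM in 5 of 76 cells, against 11 of 86 at E15.5 and 8 of 66 at E18.5. At E10.5 Hes1 did so in 58 of 88 cells.

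Cells were sorted into classes by marker lists, with a marker counted at 10 TPM or more. Cells with at least 3 of 11 measured interneuron genes were called interneuron-like. Of the rest, those with a newborn neuron score (the mean log2(TPM + 1) of 14 genes) above the radial glia score and at least 3 neuron genes were called neuron-like. The others had at least 3 of 14 radial glia genes and were called radial glia-like; those that also had at least 3 astroglial or oligodendrocyte genes formed the gliogenic class.

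At E17.5, 39 of 76 cells were neuron-like (51.3%, 39.6 to 63.0%), 19 of 76 were radial glia-like (25.0%, 15.8 to 36.3%) and 18 of 76 were interneuron-like (23.7%, 14.7 to 34.8%), and none was left out. Of the radial glia-like cells, 14 met the gliogenic rule and 5 did not. Neuron-like cells made up 51.3% at E17.5, against 77.9% at E15.5 (67 of 86, 67.7 to 86.1%), and against 15.2% at E18.5 (10 of 66, 7.51 to 26.1%). Radial glia-like cells made up 25.0% at E17.5, against 10.5% at E15.5 (9 of 86, 4.90 to 18.9%), and against 69.7% at E18.5 (46 of 66, 57.1 to 80.4%). By both shares E17.5 lay between the other stages under this rule, with intervals that did not overlap those of either stage for neuron-like cells, and that overlapped those of E15.5 but not E18.5 for radial glia-like cells. Interneuron-like cells were 23.7% at E17.5, against 11.6% at E15.5 (10 of 86, 5.72 to 20.3%) and 15.2% at E18.5 (10 of 66, 7.51 to 26.1%), with overlapping intervals. The order of the radial glia-like shares rests on the marker level: with markers counted at 1 TPM they were 7.89% at E17.5, against 8.14% at E15.5 and 37.9% at E18.5, and 68.4% of E17.5 cells were interneuron-like.

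**Figure D2:**
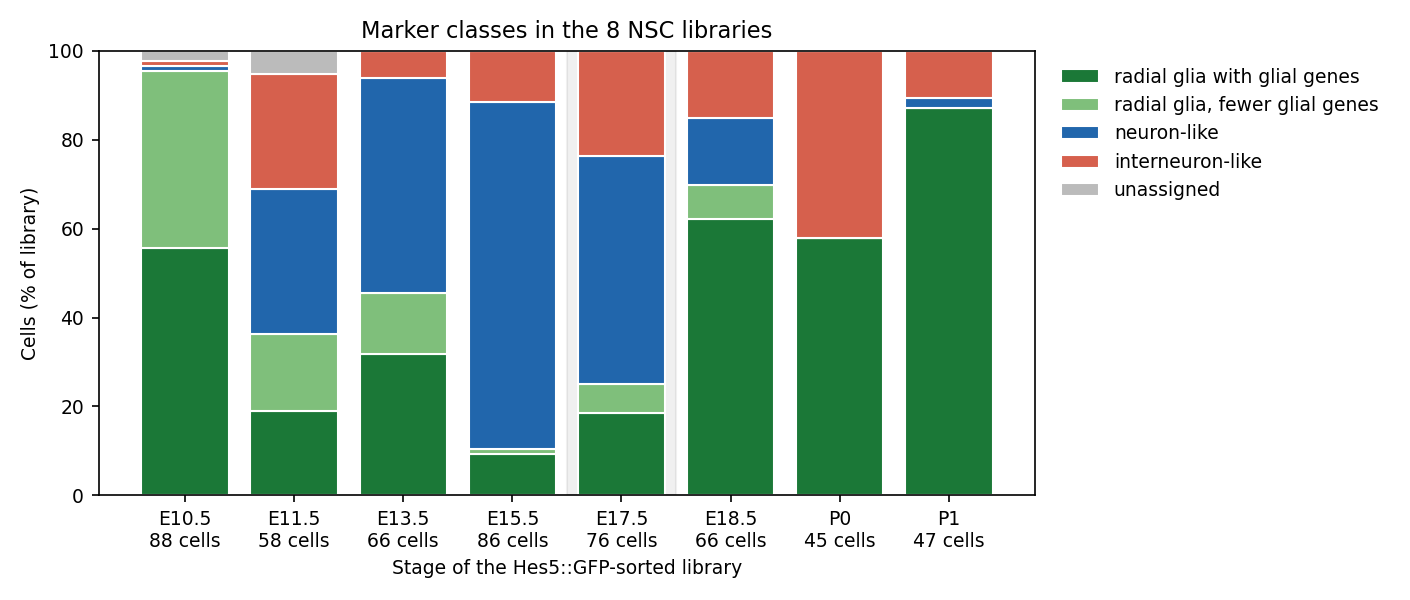
Share of cells (%) in each marker class for the 8 Hes5::GFP libraries in order of stage, with the number of cells under each bar. At E17.5 the neuron-like class (blue) is the largest, 39 of 76 cells, and the radial glia-like classes (both greens) hold 19.

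The gliogenic rule is wide and names a range, not a type. It also took 49 of 88 cells at E10.5, long before glia are made. Of its genes, S100b was at 10 TPM or more in 75 of 76 E17.5 cells, in every class, and among the radial glia genes Pax6 was so in 70 of 76. A narrower count of at least 3 of 12 astroglial genes, leaving out S100b, Slc1a2 and Ndrg2, was chosen after values were seen; it held for 10 of 76 cells at E17.5 (13.2%, 6.49 to 22.9%), against 6 of 86 at E15.5 (6.98%) and 22 of 66 at E18.5 (33.3%). Of the radial glia-like cells alone, it held for 7 of 19 at E17.5 (36.8%, 16.3 to 61.6%), against 6 of 9 at E15.5 (66.7%, 29.9 to 92.5%) and 21 of 46 at E18.5 (45.7%, 30.9 to 61.0%), with overlapping intervals.

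Of the 76 E17.5 cells, 22 lay near at least 1 class border, against 7 of 86 at E15.5 and 17 of 66 at E18.5. At E17.5 there were 3 interneuron-like cells with exactly 3 markers and 9 cells with exactly 2, and outside the interneuron-like class 9 cells had scores within 1 log2 unit of each other. Of the gliogenic cells 1 had exactly 3 glial genes, and 4 of the 5 remaining radial glia-like cells had exactly 2. Mixed profiles occurred, since 5 of the 18 interneuron-like cells also had at least 3 radial glia and 3 glial genes. The only 2 cells with more than 7000 genes were interneuron-like, and no doublet caller was run.

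**Figure D3:**
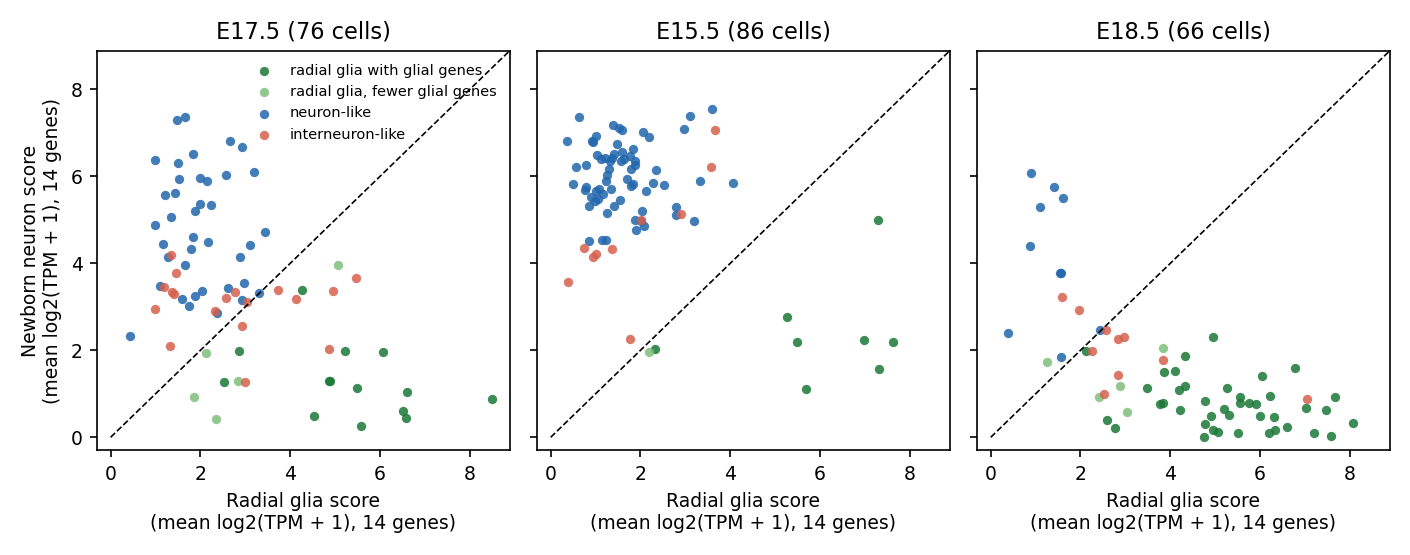
Newborn neuron score against radial glia score (each the mean log2(TPM + 1) of 14 genes) for each cell at E17.5, E15.5 and E18.5, coloured by marker class; the dashed line marks equal scores. At E17.5 cells lie on both sides of the line and 17, of any class, lie within 1 log2 unit of it, while most E15.5 cells lie above it and most E18.5 cells below.

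Ward clustering of the E17.5 cells on the 1000 most variable genes, cut into 4 groups, followed the classes only in part. One cluster of 22 cells held neuron-like cells alone, led by Olfml2b, Calb2 (calretinin) and Olfm2. A cluster of 13 cells was led by the DNA replication genes Mcm2, Asf1b and Cdc45, and held 6 radial glia-like, 6 interneuron-like and 1 neuron-like cell. The cluster led by Aldoc held 7 radial glia-like, 7 neuron-like and 1 interneuron-like cell of 15. The last, with 26 cells and Gad2 among its leading genes, held 11 interneuron-like, 9 neuron-like and 6 radial glia-like cells.

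The markers chosen for these cells gave a mixed picture. Aldoc, the aldolase of astrocytes, ranged from 0 to 5159 TPM at E17.5 with a median of 0, and reached 10 TPM in 9 of 76 cells, against 11 of 86 at E15.5 and 18 of 66 at E18.5. Tnc, the matrix protein tenascin C, ranged from 0 to 1403 TPM with a median of 0, and reached 10 TPM in 12 of 76 cells (15.8%, 8.43 to 26.0%), against 2 of 86 at E15.5 (2.33%, 0.283 to 8.15%) and 20 of 66 at E18.5. Thus Aldoc was in about as many cells at E17.5 as at E15.5, while Tnc was in more. Both together were present in 7 of 76 cells, against 2 of 86 at E15.5 and 13 of 66 at E18.5.

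Olig1, a transcription factor of the oligodendrocyte lineage, reached 10 TPM in 0 of 76 cells, for which the limit of 3 counts allows a share of up to 3.95% and the exact interval one of up to 4.74%, and its highest value was 4.76 TPM. It was so in 0 of 86 cells at E15.5 and in 15 of 66 at E18.5. Neurod6, a factor of excitatory cortical neurons, ranged from 0 to 3163 TPM with a median of 18.4, and reached 10 TPM in 40 of 76 cells (52.6%, 40.8 to 64.2%), against 80 of 86 at E15.5 and 7 of 66 at E18.5. Gad1, a GABA synthesis enzyme, ranged from 0 to 431 TPM and reached 10 TPM in 11 of 76 cells, against 10 of 86 at E15.5 and 5 of 66 at E18.5. None of these 5 markers reached 10 TPM in 20 of 76 E17.5 cells, against 0 of 86 at E15.5 and 16 of 66 at E18.5.

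Across the 8 stem cell libraries, from E10.5 through P1, mean Tnc was 0, 0.00173, 4.57, 6.42, 67.0, 143, 454 and 396 TPM, so that E17.5 was the first library above 10 TPM. Mean Aldoc was 8.10, 2.66, 243, 174, 227, 1727, 1493 and 3036 TPM, with E17.5 at the level of E13.5 and E15.5. Mean Neurod6 was 0.441, 11.9, 857, 2059, 527, 79.0, 63.4 and 60.6 TPM, highest at E15.5. Eomes, the basal progenitor factor, had its highest mean of the 8 libraries at E17.5, at 373 TPM, against 251 TPM at E15.5 and 134 TPM at E18.5. The share of cells with Eomes at 10 TPM or more did not peak there. It was 43.4% at E17.5 (33 of 76), against 55.6% at P0 (25 of 45) and 48.5% at E13.5 (32 of 66).

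**Figure D4:**
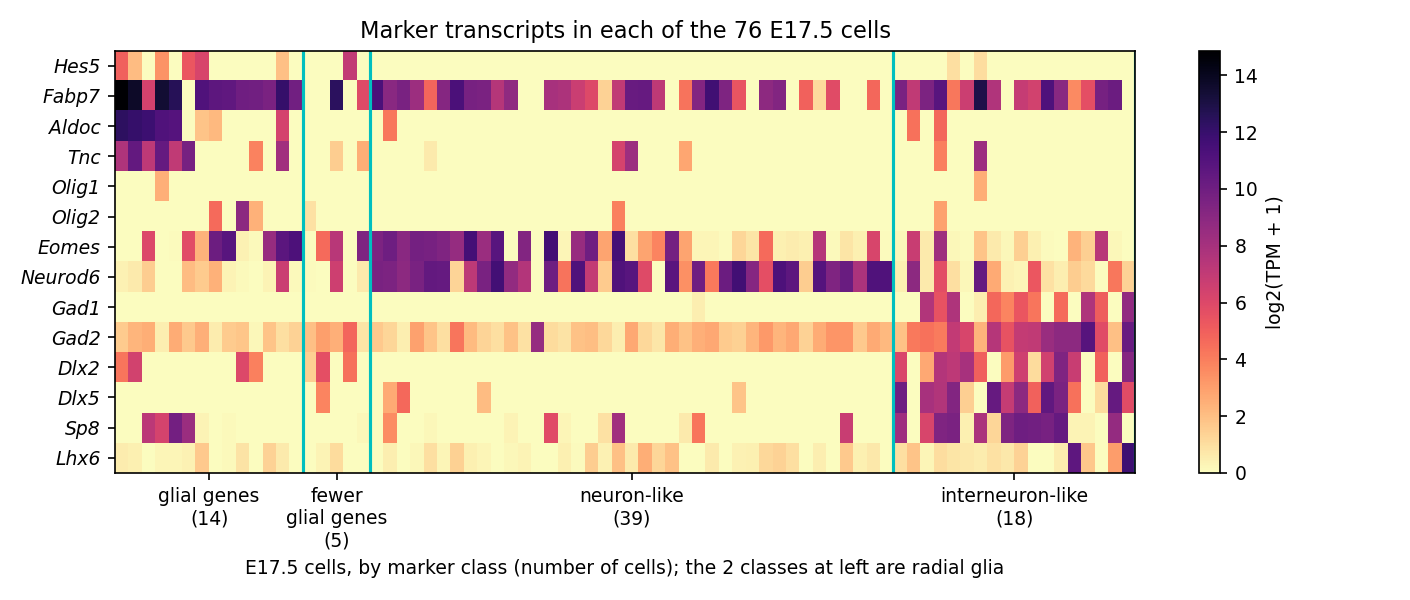
Level (log2(TPM + 1), colour) of 14 transcripts in each of the 76 E17.5 cells, which run from left to right by class, with the number of cells in each, and within a class from high to low radial glia minus neuron score. Aldoc is at 10 TPM or more in 6 of the 14 gliogenic cells and Tnc in 8, and each also in a few neuron-like and interneuron-like cells. Several of the gliogenic cells without either have Eomes, and Olig1 is near empty throughout.

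The radial glia-like cells of E17.5 divided by Aldoc. Its 6 cells at 10 TPM or more had 78.0, 2013, 2193, 3556, 4183 and 5159 TPM, and the other 13 had at most 3.57 TPM. All 6 also had Tnc at 10 TPM or more (median 245, highest 1403 TPM), as did 2 of the other 13. Fabp7, a fatty acid-binding protein of radial glia and early astrocytes, was in all 6 with a median of 8548 TPM, and in 9 of 13 with a median of 938 TPM. Hes1 was at 10 TPM or more in 4 of the 6 Aldoc cells and in 1 of 13 others.

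Most other astroglial transcripts were more frequent in the Aldoc cells. Of 14 such genes, 9 were at 10 TPM or more in a share of the Aldoc cells larger by over 20 percentage points, 4 were within that margin (Sparcl1, Gfap, Aqp4 and S100b) and 1, the gap junction gene Gja1, was in 0 of 6 and 3 of 13. Mt3, a brain metallothionein, was at 10 TPM or more in 5 of the 6 Aldoc cells and 3 of 13 others. Apoe, the lipid carrier of glia, was in 5 of 6 and 4 of 13, Clu, a secreted chaperone, in 4 of 6 and 1 of 13, and Slco1c1, a thyroid hormone transporter, in 4 of 6 and 5 of 13. Sp8, a factor used here as an interneuron marker, was in 3 of 6 and 1 of 13.

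Basal progenitor transcripts lay mostly in the cells without Aldoc. Gadd45g, a target of proneural factors, was at 0 in all 6 Aldoc cells and at 10 TPM or more in 10 of 13 others. Eomes was at 10 TPM or more in 2 of 6 and 8 of 13, and at least 3 basal progenitor genes were present in 2 of 6 and 9 of 13. A median of 3.5 of 20 G2/M genes were at 10 TPM or more in the Aldoc cells (range 2 to 8), against 9 in the others (range 1 to 16). Both kinds had similar numbers of genes, with medians of 4435 in the Aldoc cells and 4913 in the others. This split was chosen after its values were seen and is a description of 19 cells of 1 library.

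The genes whose levels were most like Aldoc over these 19 cells, of 4439 searched by Pearson r of log2(TPM + 1), were Ttyh1, a membrane protein of glia (r = 0.88), Ndn (0.84), Etl4 (0.83), Lamp1 (0.80) and Scrn1 (0.80). The cells share a library and the highest r of many are given, so these are descriptions. Ttyh1 ran from 30.6 to 890 TPM in the Aldoc cells and from 1.12 to 41.2 TPM in the others.

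Against the remaining E17.5 cells, radial glia-like cells were led outside the class lists by Gyg, which primes glycogen synthesis, at a mean of 206 TPM (10 TPM or more in 6 of 19 cells) and at 0 in the 57 others. Lmcd1, a transcription cofactor, followed, at 10 TPM or more in 5 of 19 cells and at 0 in the rest. Acsbg1, an acyl-CoA synthetase, had 138 TPM (6 of 19) against 0.0962 TPM, and Slc38a3, a glutamine transporter, 179 TPM (5 of 19) against 0.995 TPM. Fbln2, a matrix protein, Etl4, Gpx7, Rad54l and Rap1gds1 were the other named genes of the 10, and 1 was an unnamed model. Each of the 10 was at 10 TPM or more in 5 to 8 of 19 cells. Of 9768 genes counted, 12.2% were more than 4-fold higher and 18.9% lower in this class, which was drawn from the same cells, so these are descriptions.

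Set against their counterparts at E15.5, of which there were only 9, the 19 radial glia-like E17.5 cells had higher mean levels of DNA replication transcripts. Of 19 G1/S genes, 13 were more than 4-fold higher and none lower, in a comparison in which 25.9% of 8782 genes (2276) were higher and 14.6% (1281) lower. With log values averaged over cells these were 189 and 508 genes. At least 5 of the 19 G1/S genes were present in 16 of 19 cells at E17.5 (84.2%, 60.4 to 96.6%), against 6 of 9 at E15.5 (66.7%, 29.9 to 92.5%), with overlapping intervals. The median of the list was 2.87 on the log2 scale, against 0.34 for all genes counted. Pcna, the replication clamp, averaged 617 TPM (15 of 19 cells at 10 TPM or more) at E17.5, against 65.9 TPM (3 of 9) at E15.5. Mcm5, a subunit of the replicative helicase, averaged 126 TPM (8 of 19) at E17.5, against 1.08 TPM (0 of 9) at E15.5. Cdc6, which loads that helicase, averaged 88.6 TPM (4 of 19) at E17.5 and was listed at 0 in all 9 at E15.5. G2/M genes did not share this, with 2 of 20 higher, 2 lower and a median of 0.08.

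Among astroglial genes, 5 of 14 counted were more than 4-fold higher at E17.5 than in E15.5 radial glia-like cells and none was lower. Of all genes counted, 25.9% were higher and 14.6% lower, so the higher count is not far above that share. The list's median was 1.53, against 0.34 for all genes. Apoe averaged 295 TPM (9 of 19 cells) at E17.5, against 1.80 TPM (1 of 9) at E15.5. Bcan, the proteoglycan brevican, averaged 86.0 TPM (3 of 19) at E17.5, and Gfap, the intermediate filament of astrocytes, 24.1 TPM (2 of 19), and both were listed at 0 in the 9 cells of E15.5. Hopx and the glutamate transporter Slc1a2 were the others. Aldoc was not among them, with 905 TPM (6 of 19) at E17.5, against 1414 TPM (7 of 9) at E15.5, and Tnc differed by 1.89, with 229 TPM (8 of 19) at E17.5 against 61.2 TPM (2 of 9) at E15.5.

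The late glial lipid and hormone genes held 3 of 7 counted members more than 4-fold higher, where 25.9% of all genes were higher. Slco1c1 averaged 188 TPM (9 of 19 cells) at E17.5 and Thrsp, a regulator of lipid synthesis, 209 TPM (3 of 19), and both were listed at 0 in the 9 cells of E15.5. Scrg1, a small glial protein, was at 10 TPM or more in 3 of 19 cells at E17.5, against 1 of 9 at E15.5. Basal progenitor genes went the other way, with 3 of 9 more than 4-fold lower, where 14.6% of all genes were lower. None was higher, and the median was -1.60. Btg2, an antiproliferative gene, averaged 191 TPM at E17.5, against 1852 TPM at E15.5, and Neurod6 averaged 11.2 TPM (2 of 19) at E17.5, against 558 TPM (8 of 9) at E15.5.

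Against the 46 radial glia-like cells of E18.5, oligodendrocyte genes were low or absent at E17.5. Of 9 genes, 6 were more than 4-fold lower at E17.5 and none higher, in a comparison in which 16.48% of 9355 genes were lower and 16.9% higher; the median was -4.80, against 0.11 for all genes, and -0.80 with 1 gene lower when log values were averaged over cells. Over all genes those averages gave 445 higher and 22 lower, in place of 1583 and 1542. Pdgfra, the growth factor receptor of oligodendrocyte precursors, averaged 0.00752 TPM (0 of 19 cells) at E17.5, against 189 TPM (11 of 46) at E18.5. Olig1 averaged 0.241 TPM (0 of 19) at E17.5, against 98.5 TPM (15 of 46) at E18.5. Sox10, Cspg4, Bcas1 and Cnp were listed at 0 in all 19 E17.5 cells, and averaged 57.0, 26.8, 11.8 and 144 TPM at E18.5.

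The earlier members of that lineage were present at E17.5. Olig2 averaged 26.9 TPM (2 of 19 cells) at E17.5, against 45.4 TPM (6 of 46) at E18.5 and 0 in the 9 cells of E15.5. Egfr, a receptor of glial progenitors, averaged 12.1 TPM (7 of 19) at E17.5, against 32.9 TPM (11 of 46) at E18.5 and 0.478 TPM (0 of 9) at E15.5.

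**Figure D5:**
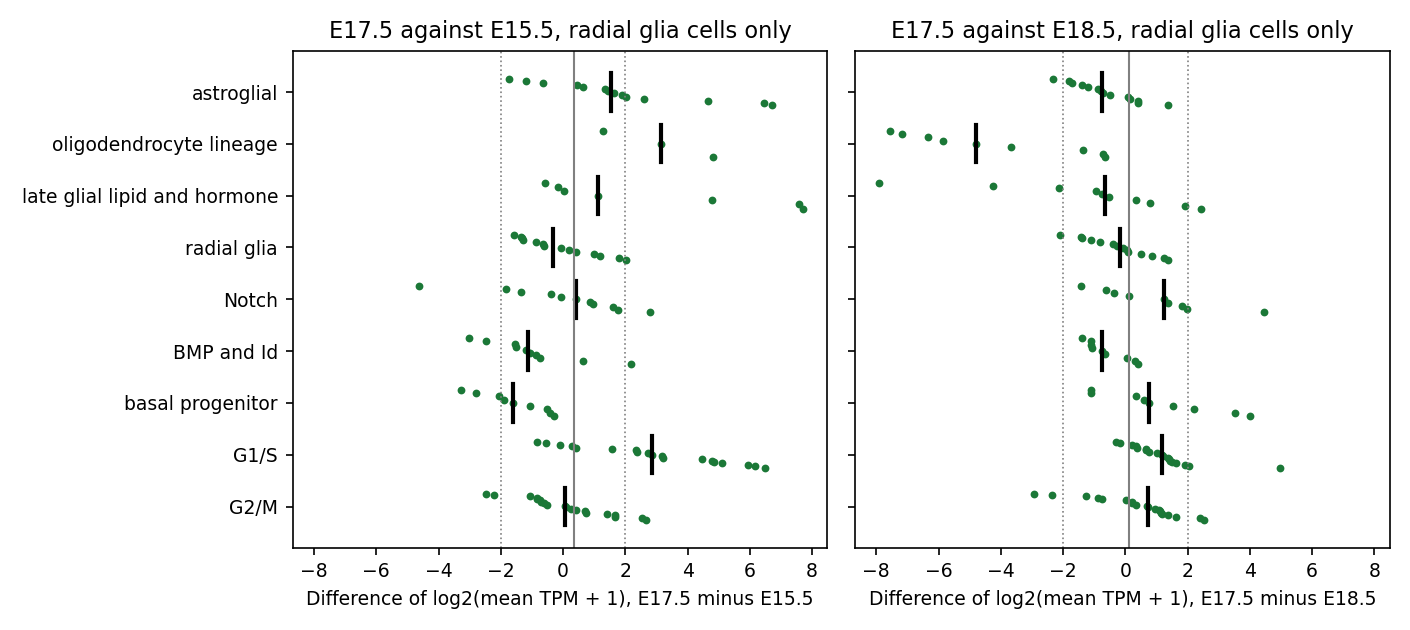
Difference of log2(mean TPM + 1) in radial glia-like cells alone, E17.5 minus E15.5 (left, 19 and 9 cells) and E17.5 minus E18.5 (right, 19 and 46 cells), for the counted genes of 9 lists (points) with each list's median (black bar), the median of all genes (grey line) and 4-fold (dotted). G1/S genes lie to the right against E15.5 and oligodendrocyte genes to the left against E18.5.

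Astroglial genes differed less from E18.5. Of 14, 1 was more than 4-fold lower at E17.5 and none higher, where 16.48% of all genes were lower and 16.9% higher. The median of -0.76 changed sign, to 0.10 with log values averaged over cells and to 0.58 with a trimmed mean. The gene past 4-fold was Hopx, with 22.7 TPM (3 of 19 cells) at E17.5, against 118 TPM (8 of 46) at E18.5. Aldoc averaged 905 TPM at E17.5 against 2381 TPM at E18.5, in 6 of 19 and 17 of 46 cells, and Tnc 229 TPM at E17.5 against 204 TPM at E18.5. Serpine2, a secreted protease inhibitor, was listed at 0 in all 19 cells at E17.5 and averaged 684 TPM (19 of 46) at E18.5. Of the lipid genes, Pla2g7 averaged 1.19 TPM (1 of 19) at E17.5, against 523 TPM (10 of 46) at E18.5.

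Several basal progenitor genes were higher at E17.5 than in the E18.5 cells. Of 9 basal progenitor genes counted, 3 were more than 4-fold higher and none lower, where 16.9% of all genes were higher and 16.48% lower. Eomes was at 10 TPM or more in 10 of 19 radial glia-like cells at E17.5 (52.6%, 28.9 to 75.6%), against 8 of 46 at E18.5 (17.4%, 7.82 to 31.4%). Rbpj, the DNA-binding partner of Notch, averaged 120 TPM (10 of 19) at E17.5, against 4.50 TPM (5 of 46) at E18.5, and was the single Notch gene of 9 past 4-fold. G2/M genes were present in 11 of 19 cells at E17.5 (at least 5 of 20 genes; 57.9%, 33.5 to 79.7%), against 17 of 46 at E18.5 (37.0%, 23.2 to 52.5%). Radial glia-like cells of E18.5 had fewer genes, with a median of 3473 against 4608 at E17.5.

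The neuron-like cells were the largest class at E17.5, and many still carried progenitor transcripts. Eomes reached 10 TPM in 20 of 39 (51.3%, 34.8 to 67.6%), against 21 of 67 at E15.5 (31.3%, 20.6 to 43.8%). At least 3 basal progenitor genes were present in 27 of 39 at E17.5, against 33 of 67 at E15.5. Fabp7 reached 10 TPM in 29 of 39 (74.4%, 57.9 to 87.0%) at E17.5, against 25 of 67 (37.3%, 25.8 to 50.0%) at E15.5. None of the 39 had Hes5 or Hes1 at that level.

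Their neuronal genes were largely shared with E15.5. Of 14 newborn neuron genes, 2 were more than 4-fold lower and none higher, where 8.44% of 9537 genes were lower (805) and 7.49% higher (714), or 89 and 16 with log values averaged over cells. Neurod6 averaged 973 TPM (33 of 39 cells) at E17.5, against 2461 TPM (67 of 67) at E15.5. Bhlhe22, a factor of cortical projection neurons, averaged 15.4 TPM (8 of 39) at E17.5, against 64.7 TPM (29 of 67) at E15.5. The class rule used these genes within each cell, so their levels within the class are descriptions.

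Several deep layer genes were lower too. Of 7 counted, 3 were more than 4-fold lower and 1 higher, where 8.44% of all genes were lower and 7.49% higher. Those named here, Fezf2, Sox5, Ldb2 and Crym, are outside the class rule. Fezf2, a determinant of subcerebral projection neurons, averaged 11.2 TPM (5 of 39) at E17.5, against 78.2 TPM (28 of 67) at E15.5. Sox5, another deep layer factor, averaged 30.1 TPM (13 of 39) at E17.5, against 197 TPM (51 of 67) at E15.5. Ldb2 averaged 0.0179 TPM (0 of 39) at E17.5, against 38.6 TPM (15 of 67) at E15.5. Crym, a thyroid hormone-binding protein of deep layer neurons, was the exception, with 76.0 TPM in 4 of 39 at E17.5, against 10.5 TPM in 2 of 67 at E15.5. Of upper layer genes, Mef2c averaged 10.0 TPM (7 of 39) at E17.5, against 103 TPM (24 of 67) at E15.5, while Cux2 differed by 0.35 and Pou3f2 by 0.08.

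Mitosis genes were higher on average in the E17.5 neuron-like cells. Of 18 G2/M genes, 10 were more than 4-fold higher and 2 lower, against 7.49% and 8.44% of all genes. Their median was 2.18, against 0.07 for all genes. The signal came from few cells. Mki67, the proliferation marker, averaged 30.6 TPM in 7 of 39 at E17.5, against 5.34 TPM in 8 of 67 at E15.5, and at least 5 G2/M genes were present in 8 of 39 (20.5%, 9.30 to 36.5%), against 7 of 67 (10.4%, 4.30 to 20.3%). With log values averaged over cells the median was 0.42 and 0 of 18 genes were past 4-fold.

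Against the remaining E17.5 cells, neuron-like cells were led outside the class lists by Rbfox1, a neuronal splicing regulator, with 111 TPM (20 of 39 cells) against 1.12 TPM. Serpini1, the protease inhibitor neuroserpin, had 229 TPM (18 of 39) against 5.02 TPM. Fbxo28, Gipc1, Emc3, Cog6, Rundc3a, Lonp2 and Sh3bp5 were the other named genes of the 10. Of 9787 genes, 12.4% were more than 4-fold higher in this class and 13.3% lower.

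The 18 interneuron-like cells of E17.5 all had a Dlx gene at 10 TPM or more, and 15 had Gad1 or Gad2. Dlx5, a homeobox factor of GABAergic cells, averaged 423 TPM (13 of 18 cells) in them, and Gad2 293 TPM (15 of 18). In the other classes Gad1 did not reach 10 TPM in any cell, and Dlx2 did in 6 of 19 radial glia-like and 0 of 39 neuron-like cells. Division genes were common, with at least 5 G2/M genes in 10 of 18 (55.6%, 30.8 to 78.5%).

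Subtype genes of more than one eminence were found. Sp8, a factor of interneurons of the caudal and lateral ganglionic eminences, reached 10 TPM in 11 of 18, and Lhx6, a factor of the medial ganglionic eminence lineage, in 2 of 18, with no cell having both. Taken as wider sets, Sp8 or Sp9 was in 13 of 18 and any of Lhx6, Sst and Sox6 in 6 of 18. Sp8, Sp9 and Lhx6 were in the class rule, so their shares in this class are descriptions. Sp8 also reached 10 TPM outside the class, in 3 of 6 Aldoc and 1 of 13 other radial glia-like cells and in some neuron-like cells. Etv1, which was not in the class rule and is expressed by cells bound for the olfactory bulb, averaged 247 TPM (11 of 18) at E17.5, against 1.48 TPM (1 of 10) in interneuron-like cells of E15.5 and 345 TPM (4 of 10) in those of E18.5. Tshz1, another factor of lateral eminence cells, averaged 341 TPM (12 of 18) at E17.5, against 102 TPM (4 of 10) at E15.5 and 26.1 TPM (2 of 10) at E18.5. The other caudal and lateral eminence genes listed outside the class rule are not described within this class. Etv1 and Tshz1 therefore do not stand for that list.

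Of 8 medial eminence genes listed, the 4 given here were in a smaller share of interneuron-like cells than at E15.5 and a larger one than at E18.5. The rest of the list is not described within this class, so these 4 do not stand for the list. Lhx6 was in 2 of 18 at E17.5, against 5 of 10 at E15.5 and 0 of 10 at E18.5. Nkx2-1, the patterning factor of the medial eminence, reached 10 TPM in 2 of 18 at E17.5, against 6 of 10 at E15.5 and 0 of 10 at E18.5. Maf was in 4 of 18 at E17.5, against 6 of 10 at E15.5 and 1 of 10 at E18.5. Nxph1, a secreted ligand of neurexins, was in 4 of 18 at E17.5, against 5 of 10 at E15.5, and was listed at 0 in the 10 of E18.5. Each library held 10 to 18 such cells, and the difference was not tested. Over whole libraries, which mix level with makeup, the list did not share the fall from E15.5. Of 6 genes counted, 5 lay above 0, 1 was more than 4-fold higher and none lower. The median was 0.40, against 0.06 for all genes, of which 6.7% were higher. Against E18.5, 4 of 5 genes counted lay above 0.

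Outside the class lists, interneuron-like cells were led by Dcbld1, with 89.9 TPM (6 of 18 cells) against 0.224 TPM in the remaining E17.5 cells, and by Gmpr2, a GMP reductase, with 240 TPM (6 of 18) against 4.02 TPM. Tusc3, a subunit of oligosaccharyl transferase, had 282 TPM (7 of 18) against 17.3 TPM. Wdr45, Arl4d, Klhdc4, Mef2a, Sept6 and Phtf2 were the other named genes of the 10. Of 9637 genes, 8.27% were more than 4-fold higher in this class and 22.3% lower.

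Over whole libraries, which mix level with makeup, 662 of 9880 genes (6.7%) were more than 4-fold higher at E17.5 than at E15.5 and 496 (5.02%) were lower. With log values averaged over cells these were 17 and 68. The 10 genes with the largest excess included 3 Y-linked genes, and the 10 with the largest deficit Xist. Among the others, Apoe averaged 86.3 TPM (12 of 76 cells) at E17.5, against 0.278 TPM (1 of 86) at E15.5. Tk1, a thymidine kinase, averaged 88.8 TPM (13 of 76) at E17.5, against 0.396 TPM (1 of 86) at E15.5, and Etv1 averaged 70.8 TPM (21 of 76) at E17.5, against 0.922 TPM (2 of 86) at E15.5. Slco1c1 averaged 57.8 TPM (14 of 76) at E17.5 and was listed at 0 at E15.5. Cdc45, Rad51ap1 and Rftn2 completed the 10.

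Of the genes lower at E17.5, Sla, an adaptor protein, averaged 1.33 TPM (1 of 76) at E17.5, against 156 TPM (21 of 86) at E15.5. Cdh13, a cadherin, averaged 1.11 TPM (2 of 76) at E17.5, against 95.5 TPM (26 of 86) at E15.5. Ndrg1 was listed at 0 in all 76 cells at E17.5 and averaged 65.1 TPM (15 of 86) at E15.5. Ino80c, Tes, Ldb2, Arg2, Setd4 and Syap1 were the rest.

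By list, 10 of 19 G1/S genes and 7 of 20 G2/M genes were more than 4-fold higher at E17.5 than at E15.5, and none of either was lower. Of all genes, 6.7% were higher and 5.02% lower. Of 12 astroglial genes counted, 4 were higher (Tnc, Bcan, Apoe and Ndrg2) and none lower. Of 14 newborn neuron genes 2 were lower, Bhlhe22 among them. Of 7 caudal and lateral eminence interneuron genes, 4 were higher: Sp8, Etv1, Prox1 and Tshz1.

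Against E18.5, 1355 of 9816 genes (13.8%) were more than 4-fold higher at E17.5 and 664 (6.76%) lower, or 297 and 25 with log values averaged over cells. The median of all genes was 0.27. Of 8 oligodendrocyte genes counted 7 were lower, of 14 astroglial genes 6, and of 13 radial glia genes 4, and none of these lists had a higher member; 5 of 13 newborn neuron genes were higher. Pdgfra, Serpine2, Olig1, Sox10 and Pla2g7 were among the 10 with the largest deficit, with values given above for the radial glia-like cells. Gatm, the first enzyme of creatine synthesis, was listed at 0 in all 76 cells at E17.5 and averaged 73.8 TPM (10 of 66) at E18.5. Gnpda1, Suclg2, Cmtm5 and G6pc3 were the others.

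Of the genes higher than at E18.5, Ppp1r15a, a stress-induced phosphatase subunit, averaged 80.4 TPM (16 of 76) at E17.5, against 0.243 TPM (0 of 66) at E18.5. Srp68, a subunit of the signal recognition particle, averaged 124 TPM (22 of 76) at E17.5, against 1.44 TPM (3 of 66) at E18.5. Nrn1, a neuritin of growing neurites, averaged 47.1 TPM (15 of 76) at E17.5, against 0.0663 TPM (0 of 66) at E18.5. Mad2l1bp and Npr2 were listed at 0 in all 66 cells of E18.5 and averaged 91.8 and 48.8 TPM at E17.5. Atf7, Mterfd2, Rtn2 and Cfp were the other named genes.

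Among regulators known to promote glial fate, Zbtb20, a zinc finger factor, was detected widely at E17.5. It was at 10 TPM or more in 19 of 19 radial glia-like, 33 of 39 neuron-like and 17 of 18 interneuron-like cells. In radial glia-like cells it averaged 711 TPM at E17.5, against 195 TPM at E15.5 and 182 TPM at E18.5. In neuron-like cells it averaged 670 TPM at E17.5, against 94.3 TPM at E15.5, a difference of 2.82. It was the single member of that list, of 8 counted, past 4-fold at library level against E15.5, where 6.7% of all genes were higher. Against E18.5, 2 of 11 members were lower and 0 higher, where 6.76% of all genes were lower. In radial glia-like cells 2 of 10 members were more than 4-fold higher than at E15.5, where 25.9% of all genes were, and Zbtb20 was not among them. Against E18.5, 2 of 11 were lower in these cells and 0 higher, where 16.48% of all genes were lower. The nuclear factor I genes of that list, Nfia, Nfib and Nfix, were not past 4-fold at library level against either stage, with Nfia at 346 TPM (73 of 76 cells) at E17.5, against 444 TPM (82 of 86) at E15.5 and 328 TPM (64 of 66) at E18.5. Nfic, a member of the family outside the list, differed more, with 77.8 TPM (15 of 76) at E17.5, against 3.15 TPM (8 of 86) at E15.5 and 18.4 TPM (10 of 66) at E18.5.

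Against E15.5 over whole libraries, 6.7% of all genes counted were more than 4-fold higher and 5.02% lower. Notch and BMP genes did not stand out from these shares. None of 7 Notch genes counted at library level was past 4-fold, and 1 of 10 BMP and Id genes was higher. That gene was Id3, a target of BMP signals, with 98.8 TPM (7 of 76) at E17.5, against 13.4 TPM (4 of 86) at E15.5 and 129 TPM (12 of 66) at E18.5. In radial glia-like cells alone, 1 of 11 Notch genes was higher than at E15.5 and 1 lower: Nrarp, a feedback inhibitor, had 30.1 TPM (3 of 19) at E17.5 against 3.46 TPM (1 of 9) at E15.5, and Hey1, another Notch target, was listed at 0 at E17.5 and had 23.7 TPM (3 of 9) at E15.5. Of 10 BMP and Id genes counted in these cells, 1 was more than 4-fold higher, 2 were lower and only 2 lay above 0. Their median was -1.12, against 0.34 for all genes, of which 25.9% were higher and 14.6% lower.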

How the data were processed

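RNA of single cells from Hes5::GFP-sorted dorsal cortex was measured by single-end sequencing of 75 bases. The deposited tables hold TPM per gene (23078) and cell (1094 in 17 libraries), computed by the authors; the submitters' processing notes list kallisto 0.43.0 and the builds GRCm38.p2 and mm10; the annotation release is not given in the sources used here. In 7 near-empty columns of the deposited tables, none at E17.5, E15.5 or E18.5, the values are whole numbers and were named a score. Depth is unknown, so no interval on a level was given.

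Cells with at least 1000 genes at 1 TPM were kept. With 1 sample per stage no test was run. A library's or class's value was log2(mean TPM over cells + 1), and genes with a mean of 10 TPM or more in either group were counted. Named genes were the 10 largest differences each way among genes at 10 TPM or more in 10% of the higher group's cells, for classes the 10 largest excesses in 25% of the class, and members of 27 lists; unnamed models were only counted. The members and lists were chosen with earlier results of these data known. No doublets were removed here. Alternatives varied the marker rule, which cells entered, how they were averaged and scaled, and the pseudocount and filter. The narrower astroglial list, the comparison of neuron-like cells, the split by Aldoc, and the alternatives without S100b and Pax6, without cells of more than 7000 genes and without X and Y genes were added after values were seen. The steps were tested on simulated data. Python 3.11.15, NumPy 2.4.6, pandas 2.3.3, SciPy 1.17.1, scikit-learn 1.9.0 and matplotlib 3.10.9 were used. Chromosomes came from GENCODE M21, which matched 22361 of 23078 gene IDs. Values of some listed genes are not reported here.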

Additional observations from a re-analysis of the deposited data

How the results depend on the processing

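No paired analysis was possible because the cell numbers only name cells and no result comes from a test. Counts of genes past 4-fold depended on how cells were averaged. Higher and lower counts at E17.5, in that order, were as follows. Against E15.5, 120 and 55 with a pseudocount of 10, 17 and 68 with log values averaged, 244 higher with a 10% trimmed mean, and 761 lower with a mean of 1 TPM or with no filter. Against E18.5, 284 and 164 with a pseudocount of 10, 297 and 25 with log values averaged, and 256 lower with the trimmed mean. For radial glia-like cells against E15.5 the counts were 1104 and 690, 189 and 508, and 1039 and 2435 under the pseudocount of 10, log averaging and the trimmed mean, and against E18.5 they were 693 and 534, 445 and 22, and 3005 and 232. For classes against the remaining E17.5 cells, log averaging left 193, 153 and 104 genes higher in radial glia-like, neuron-like and interneuron-like cells, and a pseudocount of 10 left 565, 347 and 318.

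With markers counted at 1 TPM, E17.5 had 7.89% radial glia-like and as many gliogenic, 23.7% neuron-like and 68.4% interneuron-like cells. E15.5 then had 61.6% neuron-like and 30.2% interneuron-like cells, and E18.5 37.9% radial glia-like, 36.4% gliogenic and 48.5% interneuron-like cells. With 2 markers, interneuron-like cells were 35.5% at E17.5 and 27.3% at E18.5, and radial glia-like cells 56.1% at E18.5; with 5 markers, 13.2% of E17.5 cells were interneuron-like. By the trimmed mean, E17.5 ranked place 6 for Aldoc, 4 for Olig1 and 3 for Gad1 among the 8 libraries, against place 5 for each by the mean. The other 142 alternative values of the main results were not counted as shifted, among them those without X and Y genes, without cells of more than 7000 genes and without S100b and Pax6. Some of them still differed from the main ones. With 5 markers, gliogenic cells at E18.5 were 50.0% in place of 62.1%, and neuron-like cells 9.09% in place of 15.2%. Directions did change: with markers at 1 TPM the radial glia-like share at E17.5 (7.89%) was no longer above that at E15.5 (8.14%), and with log values averaged, fewer genes were higher than lower at E17.5 against E15.5. The cause of these shifts was not tested. The median of G1/S genes in radial glia-like cells against E15.5 ranged from 1.92 to 2.90 and that of oligodendrocyte genes against E18.5 from -8.07 to -0.80 over all alternatives. Depth per cell is unknown, and E15.5 had only 9 radial glia-like cells.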

Other observations

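Several immediate early genes were higher at E17.5. Of 7 genes counted against E15.5, 2 were more than 4-fold higher and all 7 lay above 0, with a median of 0.97, where 6.7% of all genes were higher with a median of 0.06. Of 8 counted against E18.5, 2 were higher and 1 lower, with a median of 1.48, where 13.8% of all genes were higher, 6.76% lower and the median was 0.27. Jun averaged 209 TPM (52 of 76 cells) at E17.5, against 32.0 TPM (33 of 86) at E15.5 and 81.9 TPM (32 of 66) at E18.5. Dusp1, a phosphatase of MAP kinases, averaged 277 TPM (41 of 76) at E17.5, against 151 TPM (36 of 86) at E15.5 and 29.0 TPM (11 of 66) at E18.5. Such genes also respond to dissociation, whose part was not tested.

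Cells of other kinds were not seen at E17.5. Of 76 cells, 0 had at least 3 markers of microglia, endothelium, mural cells, meninges, choroid plexus, ependyma, red cells or Cajal-Retzius cells, for each of which the limit of 3 counts allows a share of up to 3.95% and the exact interval one of up to 4.74%. Ttr, the leading choroid plexus transcript, was at 10 TPM or more in 1 radial glia-like cell. Reln, the secreted protein of Cajal-Retzius cells, averaged 0.364 TPM (2 of 76) at E17.5, against 28.3 TPM (3 of 86) at E15.5. Of early stem cell genes, Hmga2 averaged 2.71 TPM (6 of 76) at E17.5, against 9.06 TPM (11 of 86) at E15.5 and 3.11 TPM (2 of 66) at E18.5.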
